A study of Mus musculus with 6 samples.

Results

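How many ribosomes an mRNA carried, relative to how much of it was present, was measured gene by gene in wild-type mouse embryonic stem cells. The genes were all those in the table of a series that also held knockout cells, and no knockout value was used. Of its 9093 genes, 8219 had at least 10 CPM (read counts scaled to a common library total) of input mRNA and were ranked. The remaining 874 genes had too little input for a ratio to be ranked. Of the 6 samples of the series, 3 were wild type, namely 2 ribosome footprint libraries and 1 input library. The labels name no separate cultures, so the spread between the footprint libraries may be technical.

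The labels give the genotype of the cells as WT, and the cells derived from a cross of C57BL/6 BVSC males to 129Sv females. All groups shared the same serum-free 2i and LIF medium, which holds stem cells in the naive pluripotent state of the early embryo. LIF, the leukemia inhibitory factor, was given at 1000 U/ml, and the 2 inhibitors were PD0325901 (1 µM), which blocks MEK, and CHIR99021 (3 µM), which blocks GSK3. Translation was paused with cycloheximide, which acts on cytosolic and not on mitochondrial ribosomes, and the lysates gave ribosome-protected fragments (footprints) and input mRNA. The labels give the molecule as polyA RNA and also as RiboZero mRNA, so it is unclear how input mRNA was selected.

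Translational efficiency (TE) is the number of footprints of a gene per unit of its mRNA. It reflects mainly how often ribosomes start on the mRNA, and also how long they stay on it. Known controls act through the start of the transcript, as in mRNAs that begin with a C and a run of pyrimidines (TOP mRNAs, most of which encode ribosomal proteins and translation factors), through short reading frames ahead of the main one, or through elements that bind regulatory proteins. Subunits of a complex are often made in proportion to their need, so that mRNA level and TE can differ between them.

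TE is given here as log2 of footprint CPM over input CPM, with 1 CPM added to each, relative to the median gene of each library, and as the mean of both footprint libraries. Adding 1 CPM understates the ratios of genes with few reads. The error after ± is the standard error of the fit (n = 2 footprint libraries and 1 input library). It was pooled across genes along a trend with mean level, and so is not the gene's own spread between libraries. The single input library was assumed to vary as much as a footprint library. Genes were called higher or lower where TE was past a 2-fold difference from the median gene by limma's treat test, at an adjusted p of 0.05 over all genes ranked. Bulk cells were measured, so a gene used by fewer cells and a gene with less RNA per cell cannot be told apart.

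The footprint libraries held 3524739 and 8675267 reads and the input library 17912908, if its lowest value stands for 1 read. The median gene had 148 and 367 footprint reads and 908 input reads. The 2 footprint libraries correlated at r = 0.994 across genes on the log2 scale, and each correlated with input at 0.712 and 0.714 (n = 8219 genes, which are not independent replicates). All 14 markers of naive pluripotency listed were in the table, with a summed input of 5758 CPM and summed footprints of 3812 and 3757 CPM. Of core pluripotency markers 5 of 6 were present (not Lin28a), with a summed input of 3535 CPM and summed footprints of 2737 and 2783 CPM. Of formative and primed markers 5 of 10 were present (Dnmt3a, Otx2, Dnmt3b, Zic2 and Foxd3, but not Fgf5 or T), with a summed input of 271 CPM and summed footprints of 247 and 254 CPM. Of other cell types, 5 of 11 endoderm markers (Lamb1, Sparc, Col4a1, Col4a2 and Lama1, but not Gata4, Gata6 or Sox17) were in the table. They summed to 1792 CPM of input and 3220 and 3222 CPM of footprints. The 5 of 13 fibroblast markers present (Col1a1, Fn1, Vim, Col5a1 and Fbln2, but not Col1a2, Col3a1 or Dcn) summed to 1818 CPM of input and 3481 and 3493 CPM of footprints. These footprint sums were close to those of the naive markers, but each rested largely on 1 gene. Sparc had 1886 and 1869 CPM of footprints, and Fn1 had 2765 and 2755 CPM. The input sums of both groups were well below the 5758 CPM of the naive markers. The 3 of 7 trophoblast and 3 of 6 neural markers present had summed inputs of 317 and 261 CPM. None of 5 markers of the 2-cell-like state was.

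TE differed widely between genes. Of the genes ranked, 1169 (14.2%) were called higher and 927 (11.3%) lower than the median gene, and 6123 were called neither. The 10th percentile lay 2.71-fold below and the 90th percentile 2.93-fold above the median gene, a 7.94-fold span. The SD of TE across genes was 1.19 on the log2 scale, against 0.13 between the footprint libraries. Both TE values of a gene share the input library, so that second value holds no error of the input. Genes called higher took 33.3% and 33.2% of footprint reads but 10.8% of input reads, and genes called lower took 3.72% and 3.76% of footprints but 16.3% of input. The median TE over all genes ranked was -0.04. Without centring on the median gene, when CPM are compared as they stand, the median over all genes was -0.30 and the split of calls turned to 856 higher and 1348 lower. A direction therefore means above or below the typical gene, and not above or below a fixed number of ribosomes per mRNA.

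**Figure D1:**
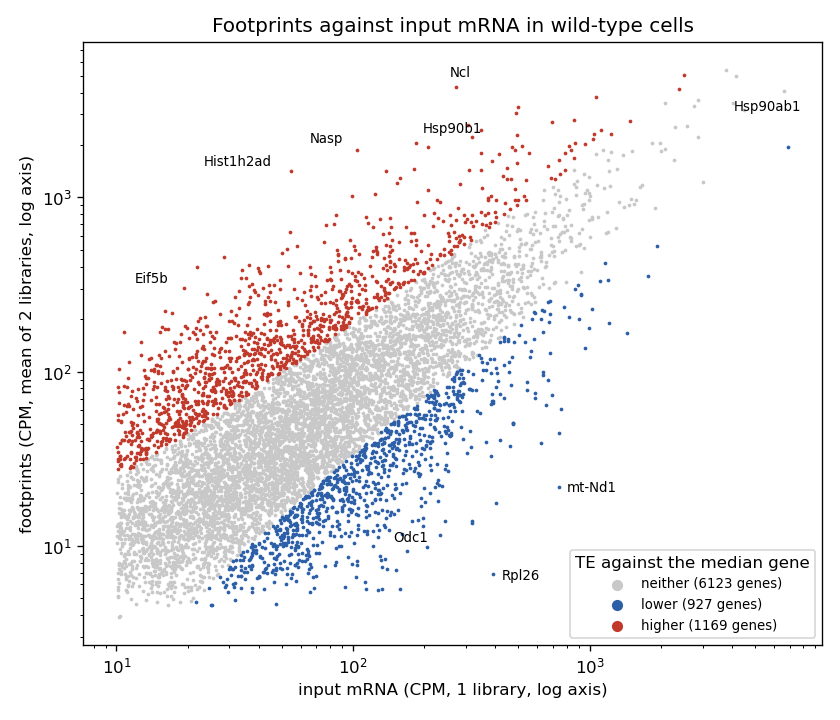
Footprints (mean CPM of the 2 wild-type libraries) against input mRNA (CPM, 1 library) for the 8219 genes ranked, both on log axes. Each point is a gene, coloured by whether its TE was called higher (1169), lower (927) or neither, and Ncl and Hist1h2ad lie far above the main cloud while Rpl26 and mt-Nd1 lie far below it.

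The highest TE was that of Hist1h2ad (ENSMUSG00000071478.6, chromosome 13, 23574381 to 23574915 in mm10), a replication-dependent gene for histone H2A. Its input was 54.4 CPM and its footprints were 1360 and 1461 CPM, a TE of 4.93 ± 0.05, or 30.5-fold above the median gene. The split of reads between near-identical histone genes is uncertain, so this value can be too high. Replication-dependent histone mRNAs also lack a poly(A) tail, which bears on input if it was selected by poly(A). Nasp (ENSMUSG00000028693.15, chromosome 4, 116601052 to 116628676), a chaperone of free histones, came next with 104 CPM of input and 1886 and 1882 CPM of footprints (TE 4.43 ± 0.04). Both footprint libraries lay far above the input for each of these genes. Ncl (ENSMUSG00000026234.12, chromosome 1, 86344719 to 86359455), which encodes nucleolin, the main RNA-binding protein of the nucleolus, had 273 CPM of input against 4340 and 4305 CPM of footprints (TE 4.24 ± 0.03). It was the only one of the 12 highest genes that was also among the 10 genes with most footprint CPM. Ssb (the La protein, which binds the ends of new RNA polymerase III transcripts) had 21.9 CPM of input and 394 and 405 CPM of footprints (TE 4.39 ± 0.08).

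The other genes among the 12 highest were Mrpl50 (4.20 ± 0.07), Eif5b (4.15 ± 0.09), Rbm34 (4.11 ± 0.11), Top1 (DNA topoisomerase I, 3.98 ± 0.10), Psmc6 (3.77 ± 0.06), Leo1 (3.74 ± 0.09), Hsp90b1 (3.73 ± 0.04) and a gene known here by its identifier ENSMUSG00000001833.17, because its symbol had been turned into a date (3.83 ± 0.10). Ssb overlaps Mettl5 and Eif5b overlaps Rev1 in the RefSeq annotation, and the strand used in counting is not given in the sources used here, so reads of such partners cannot be told apart. Of the 12, 7 had under 30 CPM of input. Among genes at or above the median input of 57.8 CPM, the 10 highest were Nasp, Ncl, Hsp90b1, Fkbp3, Ddx3x, Npm1, Fxr1, Gatd1, Rbm39 and Spp1, of which Fkbp3 overlaps Prpf39 and Fxr1 overlaps Dnajc19. Spp1, the secreted protein osteopontin, had 306 CPM of input and 2576 and 2633 CPM of footprints (TE 3.34 ± 0.03).

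The lowest TE was that of Rpl26 (ENSMUSG00000060938.14, chromosome 11, 68901566 to 68904534), a protein of the large ribosomal subunit. Its input was 391 CPM and its footprints were 6.81 and 7.03 CPM, from 24 and 61 reads, a TE of -5.37 ± 0.18, or 41.4-fold below the median gene. Mitochondrially encoded mt-Nd1 had 741 CPM of input and 19.6 and 24.1 CPM of footprints (TE -4.77 ± 0.11). Both footprint libraries lay far below the input for both genes. Mif (a secreted cytokine with tautomerase activity, -4.32 ± 0.22), Rps4x (a small-subunit protein, -4.21 ± 0.15), Slc25a5 (the ADP/ATP carrier of mitochondria, -4.18 ± 0.13) and Eef1g (a subunit of the factor that recharges eEF1A, -4.16 ± 0.15) followed. Cox7a2l (-4.09 ± 0.22), Egln2 (an oxygen-sensing prolyl hydroxylase, -4.04 ± 0.22), Tuba1b (-4.01 ± 0.18), Ptma (-3.99 ± 0.20), Odc1 (-3.97 ± 0.17) and Hist2h3b (-3.87 ± 0.23) completed the 12 lowest. For the histone gene Hist2h3b, too, the split of reads between near-identical genes is uncertain. Of these 12 genes, 5 have at least 1 pseudogene copy named after them in RefSeq, against 1 of the 12 highest and 196 of all 8219 ranked.

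Gene families were described by the share of their ranked members called in each direction, beside 14.2% higher and 11.3% lower over all genes. These shares varied with input. The 1645 genes with least input had 23.4% called higher and 0.06% lower, and the 1644 with most had 9.67% and 19.5%. Of 49 families with ranked members, 33 had a median TE above 0, 5 a median of at least 1 and 2 a median of -1 or less.

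**Figure D2:**
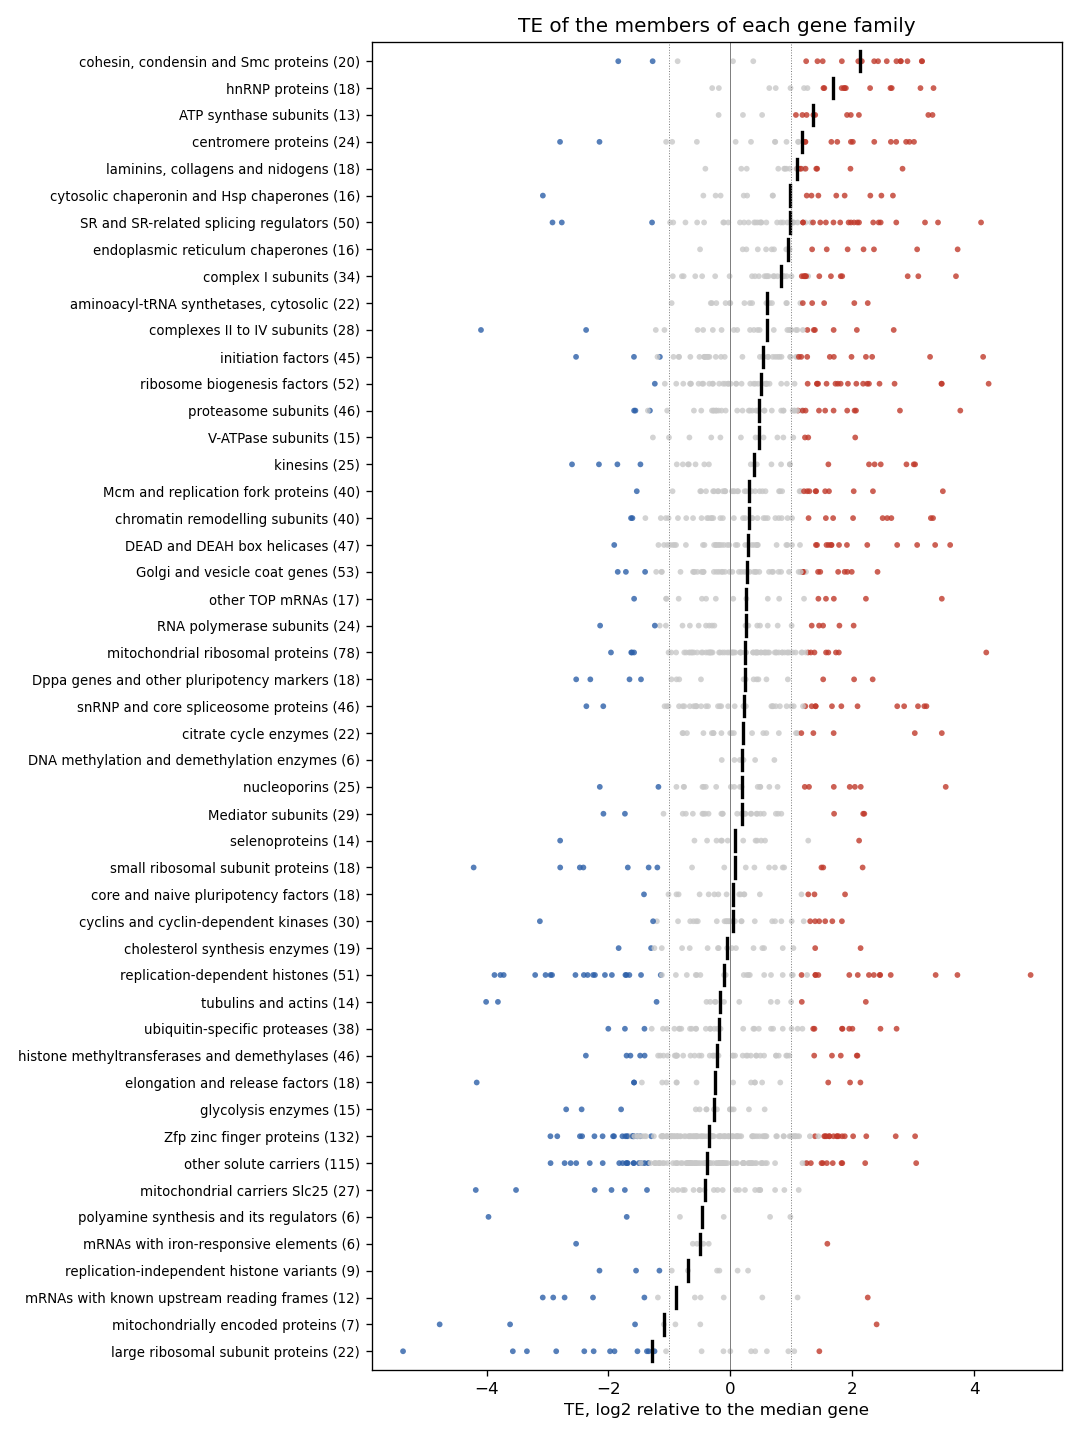
TE (log2 relative to the median gene) of every ranked member of 49 gene families, with the number of members in brackets, families in order of their median (black bar) and dotted lines at 2-fold. Red points were called higher, blue points lower and grey points neither; cohesin, condensin and Smc proteins lead at a median of 2.13 and large ribosomal subunit proteins come last at -1.29.

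Proteins of the cytosolic ribosome lay mostly below the median gene, and spread from -5.37 to 2.17. The table held 41 such genes, of which 40 were ranked, with 4 called higher, 19 lower and a median TE of -0.84. Large-subunit proteins had a median of -1.29 (1 of 22 higher, 12 of 22 lower), and small-subunit proteins one of 0.08 (3 of 18 higher, 7 of 18 lower). Together the 41 genes in the table took 1.87% and 1.88% of footprint reads against 2.43% of input reads. Ribosomal protein genes absent from the table are not covered by these medians and shares. Their median input was 225 CPM in the large and 361 CPM in the small subunit, which is high. The 1644 genes with most input, from 153 CPM on, had a median TE of -0.23, with 9.67% called higher and 19.5% lower. The part of high input in the low TE of ribosomal proteins was not tested.

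Rplp1, an acidic protein of the stalk that recruits elongation factors, had 1443 CPM of input and 165 and 167 CPM of footprints (TE -2.86 ± 0.05). Rps14 had 1210 CPM of input and 185 and 193 CPM of footprints (TE -2.41 ± 0.05). Rpl37 had 229 CPM of input and 20.7 and 15.7 CPM of footprints (TE -3.34 ± 0.14). In each of these, both footprint libraries were below the input. At the other end, Rps19 had 402 CPM of input and 980 and 959 CPM of footprints (TE 1.53 ± 0.04), and Rps25 had 13.7 CPM of input and 59.9 and 49.6 CPM of footprints (TE 2.17 ± 0.16). Rps3a1 (2.82-fold above the median gene) and Rpl30 (2.75-fold, with 10 named copies) were the others called higher. Rpl8, among the 10 genes with most footprints, lay near the median gene at 3614 and 3671 CPM against 2874 CPM of input (TE 0.60 ± 0.02).

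Ribosomal protein genes have many pseudogene copies, whose reads an aligner can place on the wrong copy or drop. The 28 genes with at least 1 copy named after them in RefSeq had a median TE of -1.34 (3 higher, 17 lower). The 12 genes without a named copy had a median of 0.50 (1 higher, 2 lower). Outside this group, with histone genes also left out, 168 genes with a named copy had a median of -0.17 with 32 called lower. The 7960 such genes without one had a median of -0.03 with 857 called lower. Input was not matched in either comparison. The 1644 genes with most input had a median of -0.23, with 19.5% called lower. The part of input in the lower values of genes with a copy was not tested. Copies that are not named after their parent gene are not counted here. The part that copies play in the low TE of ribosomal proteins was not tested.

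**Figure D3:**
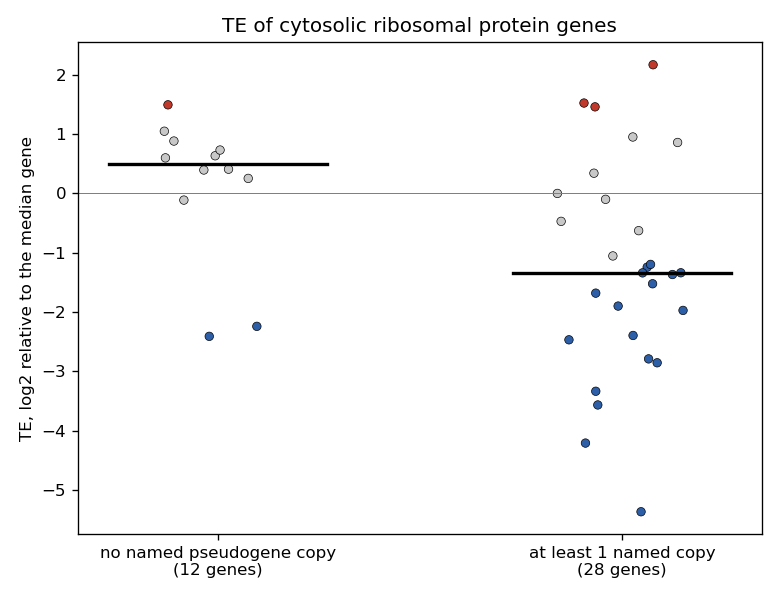
TE (log2 relative to the median gene) of the 40 ranked cytosolic ribosomal protein genes, split by whether RefSeq names a pseudogene copy after them. Each point is a gene, red for higher, blue for lower and grey for neither, and the bars are medians, 0.50 without and -1.34 with a named copy.

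Transcripts of ribosomal proteins start with the TOP signal, a C followed by pyrimidines, through which mTOR signalling controls their translation. The bases around the RefSeq start are shown for 6 ribosomal protein genes with such a run. The first 3 had the lowest and the last 3 the highest TE among those with a run. The TE of these 6 genes spanned -2.79 to 0.95, against -5.37 to 2.17 over the 40 ranked. Each window holds 10 bases ahead of the start and 20 from it on, from RefSeq (GRCm38.p6), and capitals mark a C followed by at least 4 bases that are C or T, beginning within 5 bases of the start on the strand of the gene.
Rps10: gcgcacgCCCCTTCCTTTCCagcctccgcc
Rpl13a: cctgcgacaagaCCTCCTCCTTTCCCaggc
Rpl34: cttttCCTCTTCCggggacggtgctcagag
Rps18: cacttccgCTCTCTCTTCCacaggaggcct
Rps27l: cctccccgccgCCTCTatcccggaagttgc
Rpl7a: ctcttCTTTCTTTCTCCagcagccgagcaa
The windows lie at chr17:27635225-27635254 (minus strand), chr7:45128726-45128755 (minus), chr3:130730318-130730347 (minus), chr17:33955646-33955675 (minus), chr9:66946076-66946105 (plus) and chr2:26910797-26910826 (plus). Rps10 (TE -2.79 ± 0.12), Rpl13a (-2.40 ± 0.15) and Rpl34 (-1.97 ± 0.12) were called lower. Rps18 (0.86 ± 0.06), Rps27l (0.88 ± 0.06) and Rpl7a (0.95 ± 0.07) were called neither. In Rpl34 and Rpl7a the pyrimidines go on ahead of the capitals, which begin at the limit of 5 bases.

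A start sequence was at hand for 30 of the 40 ribosomal protein genes. The 15 with a run within 5 bases of the start had a median TE of -1.05 (0 higher, 7 lower), and the 15 without one had -0.11 (3 higher, 7 lower). The order turned where the run had to begin at the start itself, with a median of -0.47 in 5 genes with a run (0 higher, 2 lower) and -1.05 in 25 without (3 higher, 12 lower). A run within 5 bases of the start occurs in 18.3% of all 32851 RefSeq promoters. Over the 6699 genes ranked that had a start sequence it marked little, with a median of -0.10 in 1581 genes with a run and -0.03 in 5118 without. For a run at the start itself (2.51% of promoters), the medians were -0.03 in 186 genes with it and -0.06 in 6513 without. A match in these windows is not evidence that the transcript starts there. Other mRNAs known to be TOP mRNAs were spread to both sides, with a median of 0.26 (5 of 17 higher, 1 of 17 lower), from Npm1 at 3.47 ± 0.04 to Eef2 at -1.58 ± 0.02.

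Of 18 elongation and release factors 3 were called lower, the elongation factors Eef2, Eif5a and Eef1g, and 3 higher, all of which act at the end of translation. Eef2, which moves the ribosome along the mRNA, had the most input CPM of all genes ranked, 6922, but 1940 and 1933 CPM of footprints. Eef1a1, which delivers charged tRNA, had 3017 CPM of input and 1211 and 1228 CPM of footprints (TE -1.05 ± 0.03, called neither), and has 2 named copies. Eef1g had 319 CPM of input and 13.6 and 14.3 CPM of footprints, below the input in both libraries. Gspt1 and Etf1, the 2 subunits of the termination factor, had TE of 2.14 ± 0.05 and 1.97 ± 0.06, and Abce1, which splits ribosomes after termination, 1.61 ± 0.08. All of these factors together took 0.69% and 0.68% of footprints against 1.40% of input.

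Among 45 initiation factors 10 were called higher and 3 lower (median 0.54). Subunits of eIF3, the scaffold on the small subunit, had a median of 0.98 with 5 of 12 higher. Eif3a had 158 CPM of input and 1270 and 1302 CPM of footprints (TE 3.28 ± 0.04), and Eif3g 387 CPM of input and 1628 and 1624 CPM of footprints (TE 2.33 ± 0.04). Genes of the eIF4 group, which holds the cap-binding protein, its partners and its inhibitors, had a median of -0.31 with 0 of 12 higher and 2 lower. The lowest was Eif4ebp2, an inhibitor of the cap-binding protein, with 545 CPM of input and 75.2 and 80.9 CPM of footprints (TE -2.53 ± 0.08). Eif5a, which helps ribosomes through proline stretches, was at -1.58 ± 0.05.

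Of 52 ribosome biogenesis factors 18 were called higher and 1 lower (median 0.51). Npm1, the nucleolar chaperone nucleophosmin, had 208 CPM of input and 1931 and 1940 CPM of footprints (TE 3.47 ± 0.04). Polr1a, the largest subunit of RNA polymerase I, was the 1 called lower (-1.24 ± 0.08). The cytosolic aminoacyl-tRNA synthetases and their scaffolds had 5 of 22 higher and 0 lower (median 0.60), from Eprs (2.26 ± 0.05) and the scaffold Aimp1 (2.03 ± 0.06) to Mars (-0.96 ± 0.06). The 78 mitochondrial ribosomal proteins had a median of 0.25, with 8 higher and 4 lower, from Mrps12 at -1.96 ± 0.18 to Mrpl50 with 28.5 CPM of input and 432 and 472 CPM of footprints.

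mRNAs known to be held back by upstream reading frames lay low. Of 12 ranked, 5 were called lower and 1 higher (median -0.89). Ppp1r15a, the inducible subunit of the phosphatase that restores eIF2, had 95.1 CPM of input and 7.38 and 9.80 CPM of footprints (TE -3.08 ± 0.21). Ddit3, a stress transcription factor, had 67.7 CPM of input and 6.53 and 6.80 CPM of footprints (TE -2.91 ± 0.23). Footprints of both genes were few in each library, 23 to 85 reads, and below the input.

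Slc35a4 (-2.72 ± 0.23), Ppp1r15b (-2.25 ± 0.09) and Atf4 (-1.41 ± 0.06) were the others called lower. Atf4, the main transcription factor of the integrated stress response, had 681 CPM of input and 204 and 224 CPM of footprints. Atf5 (-0.58 ± 0.12), Azin1 (-0.11 ± 0.12) and Ibtk (1.10 ± 0.12) were called neither, and Eprs, also a synthetase, was the 1 called higher. Whether the footprints of these genes lie in the upstream frames or in the coding region cannot be read from values per gene.

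Other mRNAs with known translational control gave mixed values. Iron-responsive elements ahead of the coding region hold back ferritin mRNA when iron is scarce, whereas those of Tfrc lie behind it and act on stability. Ftl1, ferritin light chain, had 161 CPM of input and 26.1 and 19.4 CPM of footprints (TE -2.53 ± 0.14, 2 named copies). Fth1, the heavy chain, lay at -0.35 ± 0.05, and Tfrc, the transferrin receptor, at 1.59 ± 0.06. Odc1, the first enzyme of polyamine synthesis, had 233 CPM of input and 12.5 and 10.6 CPM of footprints (TE -3.97 ± 0.17). Of the 6 polyamine genes ranked 2 were called lower, the other being Smox (-1.70 ± 0.18), and 0 higher. Among 14 selenoproteins and their factors, whose mRNAs are read through a stop codon that codes for selenocysteine, 1 was higher (Selenos, 2.11 ± 0.09) and 1 lower (Sephs2, -2.79 ± 0.11), with a median of 0.08.

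The family with the highest median held the ring-shaped complexes of chromosomes and their partners, at 2.13 with 15 of 20 called higher and 2 lower. All 7 Smc proteins ranked, the long coiled ATPases of cohesin, condensin and related complexes, were called higher, between 2.57 and 3.15. Smc4 had 23.9 CPM of input and 193 and 173 CPM of footprints (TE 3.14 ± 0.10). Smc3 had 26.2 CPM of input and 166 and 174 CPM of footprints (TE 2.91 ± 0.10). Smc1a had 30.5 CPM of input and 150 and 161 CPM of footprints (TE 2.57 ± 0.10). In all 3 both footprint libraries exceeded the input severalfold.

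Other parts of the same complexes varied more. Rad21, the kleisin that closes the cohesin ring, had 163 CPM of input and 321 and 326 CPM of footprints (TE 1.24 ± 0.06). The 6 condensin subunits other than Smc proteins had a median of 0.21, with Ncapg (2.36 ± 0.13) and Ncapg2 (1.83 ± 0.15) higher, Ncaph2 lower (-1.27 ± 0.07), and Ncapd2, at 707 CPM of input and 329 and 320 CPM of footprints, at -0.86 ± 0.05. The loader subunits of cohesin lay on opposite sides, Nipbl at 2.16 ± 0.14 and Mau2 at -1.84 ± 0.14. Input levels moved with these values. The family's median input was 28.4 CPM against 57.8 CPM over all genes. The 1645 genes with least input had a median TE of 0.42, with 23.4% called higher and 0.06% lower. No gene in the table had under 3.12 CPM of footprints in library 1 or 4.26 CPM in library 2. A gene with little input could therefore hardly be called lower. Among the 10 members with at least 30 CPM of input the median TE was 0.81, and with that minimum 5 members were called higher. Since input is the denominator of TE, the 2 are linked by construction, and the part of low input in this result was not tested.

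**Figure D4:**
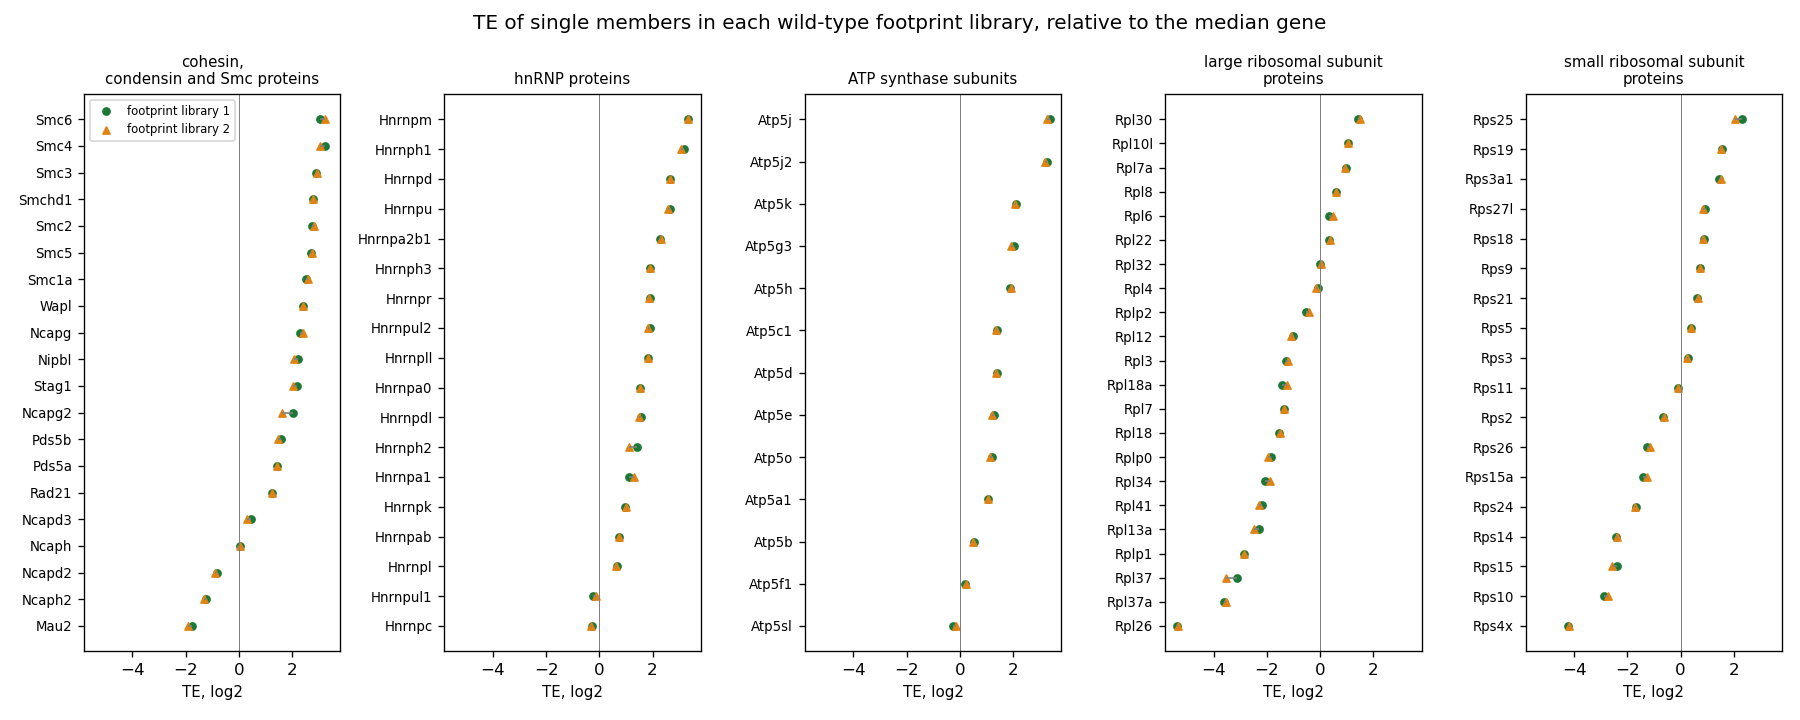
TE (log2 relative to the median gene) of each ranked member of 5 gene families in footprint library 1 (circles) and library 2 (triangles), with a line at the median gene. The 2 libraries nearly coincide for most members, all 7 Smc proteins lie above 2.5, and the ribosomal proteins run from Rpl26 at -5.37 to Rps25 at 2.17.

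Centromere and kinetochore proteins had a median TE of 1.17 with 12 of 24 higher and 2 lower. Cenpf (3.01 ± 0.07), Cenpe (2.94 ± 0.13) and Ndc80 (2.89 ± 0.15), which link centromeres to microtubules, were highest. The 2 called lower were Cenpa, the histone H3 variant that marks centromeres, with 216 CPM of input and 42.6 and 37.6 CPM of footprints (TE -2.15 ± 0.11), and Cenpb, with 139 CPM of input and 15.3 and 16.4 CPM of footprints (TE -2.79 ± 0.16). With at least 30 CPM of input, 7 members were called higher. Kinesins had 7 of 25 higher and 4 lower (median 0.39, and -0.35 in the 19 with at least 30 CPM of input). Kif11, the motor that separates spindle poles, had 39.5 CPM of input and 283 and 269 CPM of footprints (TE 3.03 ± 0.08), and Kif1c, a transport motor, 138 CPM of input and 20.1 and 16.5 CPM of footprints (TE -2.60 ± 0.16).

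Alpha and beta tubulins, which pair in equal number, had different medians. The 4 alpha tubulins had a median of -2.10, and Tuba1b had 205 CPM of input and 11.1 and 8.53 CPM of footprints. Tuba1c had 139 CPM of input and 7.09 and 7.61 CPM of footprints (TE -3.81 ± 0.20). The 6 beta tubulins had a median of 0.41, and Tubb5, the gene with most footprint CPM of all, had 3786 CPM of input and 5491 and 5323 CPM of footprints (TE 0.77 ± 0.02). Alpha tubulin genes are near-identical in their coding sequence, so reads could have been split or lost between them in counting. Cfl1, cofilin, which severs actin filaments, was called higher (2.22 ± 0.03), and Actb lay at -0.24 ± 0.02.

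Among 40 genes of the replication fork 10 were called higher and 1 lower (median 0.30). Pola1, the catalytic subunit of the polymerase that primes DNA synthesis, had 26.1 CPM of input and 251 and 255 CPM of footprints (TE 3.49 ± 0.09). Fen1, the nuclease that trims Okazaki fragments, was the 1 called lower (-1.53 ± 0.10). Cyclins and their kinases had 6 of 30 higher and 2 lower (median 0.04), the lowest being Cdk16 with 238 CPM of input and 20.7 and 23.2 CPM of footprints (TE -3.13 ± 0.14), and the mitotic cyclin Ccnb1 at -1.27 ± 0.11.

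Replication-dependent histone genes were spread across nearly the whole range, with 14 of 51 higher, 19 of 51 lower and a median of -0.10. Among the 48 with at least 30 CPM of input the median was -0.52. By class, H2A genes had a median of 2.32 (9 of 12 higher, 1 lower), whereas H3 genes had -1.29 (0 of 10 higher, 5 lower). H2B genes had -0.49 (3 of 13 higher, 6 lower), H4 genes -0.57 (1 of 11 higher, 5 lower) and H1 genes 0.56 (1 of 5 higher, 2 lower). Hist1h2an had 36.2 CPM of input and 411 and 411 CPM of footprints (TE 3.73 ± 0.07). Hist1h2bb had 741 CPM of input and 46.2 and 42.6 CPM of footprints (TE -3.77 ± 0.09), and Hist1h3e had 625 CPM of input and 36.3 and 41.3 CPM of footprints (TE -3.72 ± 0.10).

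Genes of 1 histone class are near-identical copies in clusters, so the split of reads between them is uncertain and a value per gene can be too high in 1 copy and too low in its neighbour. Summed over the family they took 2.32% and 2.36% of footprints and 2.13% of input. Their mRNAs also end in a stem-loop and not in a poly(A) tail, which bears on input if it was selected by poly(A). Histone variants grouped here as replication-independent had 0 of 9 higher and 3 lower (median -0.70), namely Cenpa, H1f0 (-1.55 ± 0.16) and H2afx (-1.16 ± 0.05).

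Other chromatin regulators had group medians within 2-fold of the median gene, with high single members. Chromatin remodelling subunits had 9 of 40 higher and 2 lower (median 0.30), led by Smarcad1 (3.33 ± 0.08) and Atrx (3.29 ± 0.08). Histone methyltransferases and demethylases had 5 of 46 in each direction (median -0.22), with Setd2 (2.09 ± 0.12), which methylates H3 on elongating genes, and Ezh2 (2.08 ± 0.06), the enzyme of Polycomb repression, highest. Zfp zinc finger genes, many of them repressors of transposons, often had too little input to rank, 65 of 197. Of the 132 ranked 16 were higher and 19 lower (median -0.35, and -0.74 in the 72 with at least 30 CPM of input). All 6 DNA methylation and demethylation enzymes ranked, among them Dnmt1 and Tet1, were called neither, between -0.14 and 0.72.

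Of 18 hnRNP proteins, which coat new transcripts and steer splicing, 11 were called higher and 0 lower (median 1.69), and they took 1.08% of footprints in each library against 0.45% of input. Hnrnpm had 123 CPM of input and 1040 and 1055 CPM of footprints (TE 3.33 ± 0.05). Hnrnpu, which also anchors chromatin, had 349 CPM of input and 1842 and 1771 CPM of footprints (TE 2.63 ± 0.03). Hnrnpa2b1 had 349 CPM of input and 1419 and 1445 CPM of footprints (TE 2.29 ± 0.04). Footprints exceeded the input in both libraries for these 3, whereas Hnrnpc, with 418 CPM of input and 285 and 283 CPM of footprints, lay at -0.30 ± 0.06.

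SR proteins and related splicing regulators had 19 of 50 higher and 3 lower (median 0.97). Rbm39, a splicing coactivator, had 77.0 CPM of input and 721 and 663 CPM of footprints (TE 3.41 ± 0.06). The 3 called lower were Rbm15b (-2.92 ± 0.17), Rbm10 (-2.77 ± 0.20) and Srsf2 (-1.28 ± 0.07). Core spliceosome proteins had 12 of 46 higher and 2 lower (median 0.22), led by Sf3b1, which recognises the branch point, with 154 CPM of input and 1246 and 1168 CPM of footprints (TE 3.22 ± 0.04).

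DEAD and DEAH box helicases had 13 of 47 higher and 1 lower (median 0.29). The highest, Ddx3x, helps ribosomes start on structured mRNAs and had 138 CPM of input and 1425 and 1400 CPM of footprints (TE 3.61 ± 0.04). Dhx34, a factor of nonsense-mediated decay, was the 1 called lower (-1.90 ± 0.22). Nucleoporins had 7 of 25 higher and 2 lower (median 0.19), with Tpr of the nuclear basket highest (3.54 ± 0.07) and Nup188 of the inner ring lowest (-2.14 ± 0.07). RNA polymerase subunits had 5 of 24 higher and 2 lower (median 0.26, and -0.26 in the 21 with at least 30 CPM of input). Mediator subunits had 3 of 29 higher and 2 lower (median 0.19).

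Subunits of the mitochondrial ATP synthase had a median of 1.36, with 10 of 13 called higher and 0 lower, and took 1.63% and 1.60% of footprints against 0.88% of input. The highest were Atp5j at 83.1 CPM of input and 724 and 677 CPM of footprints (TE 3.32 ± 0.05) and Atp5j2 at 181 CPM of input and 1472 and 1424 CPM of footprints (TE 3.25 ± 0.04). Atp5a1 and Atp5b encode the alpha and beta subunits of the catalytic part. Atp5a1 had 2389 CPM of input and 4197 and 4228 CPM of footprints (TE 1.08 ± 0.02), and Atp5b had 4148 CPM of input and 4996 and 4965 CPM of footprints (TE 0.52 ± 0.02, called neither). Several calls sat close to the 2-fold line, since 6 members were called higher without centring and 5 with more spread allowed for the input library.

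Complex I of the respiratory chain had 12 of 34 members higher and 0 lower (median 0.83). Ndufa1, a small membrane subunit, had 34.1 CPM of input and 387 and 375 CPM of footprints (TE 3.70 ± 0.07). Complexes II to IV had 6 of 28 higher and 2 lower (median 0.60), from Uqcr11 (2.68 ± 0.06) to Cox6c (-2.37 ± 0.16) and Cox7a2l (-4.09 ± 0.22), a factor for joining complexes. Genes encoded in mitochondria, which are translated by mitochondrial ribosomes, had a median of -1.09 with 1 of 7 higher and 3 lower. Those called lower were mt-Nd1, mt-Nd4 (-3.61 ± 0.20) and mt-Nd2 (-1.56 ± 0.15). mt-Nd6, the only one of these genes on the opposite strand, was higher (69.7 CPM of input, 314 and 308 CPM of footprints, TE 2.40 ± 0.07), and without strand its reads cannot be told from those of antisense transcripts. mt-Co1 had 1544 CPM of input and 944 and 890 CPM of footprints (TE -0.49 ± 0.03).

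Metabolic enzymes were closer to the median gene. Citrate cycle enzymes had 5 of 22 higher and 0 lower (median 0.21), with Sucla2 at 3.47 ± 0.07 and Dld at 3.03 ± 0.10. Glycolysis enzymes had 0 of 15 higher and 3 lower (median -0.27), and the 3 were Ldha (-2.69 ± 0.08), Gapdh (-2.44 ± 0.26) and Eno1 (-1.79 ± 0.08). Ldha, which makes lactate, had 588 CPM of input and 81.7 and 68.9 CPM of footprints, and both Ldha and Gapdh have 3 named copies. Cholesterol synthesis enzymes had 2 of 19 in each direction (median -0.05), with Hmgcs1, which makes the precursor of mevalonate, highest at 2.14 ± 0.05.

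Carriers of small molecules lay below the median gene as groups. Mitochondrial carriers of the Slc25 family had 0 of 27 higher and 6 lower (median -0.42), with Slc25a5 at 402 CPM of input and 18.2 and 17.1 CPM of footprints and Slc25a51, the NAD carrier, at 92.3 CPM of input and 6.24 and 5.42 CPM of footprints (TE -3.52 ± 0.23). Other solute carriers had 10 of 115 higher and 17 lower (median -0.39). Among these, Slc38a2, a neutral amino acid transporter, was higher (2.21 ± 0.05) and Slc35e1 lower (-2.95 ± 0.16). Subunits of the vacuolar proton pump had 3 of 15 higher and 0 lower (median 0.46).

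Chaperones of the endoplasmic reticulum had 7 of 16 called higher and 0 lower (median 0.95), and their share of footprints was 1.59% and 1.58% against 0.61% of input. Hsp90b1, the Hsp90 of this compartment, had 184 CPM of input and 2078 and 2036 CPM of footprints. Pdia3, a disulfide isomerase, had 319 CPM of input and 2269 and 2205 CPM of footprints (TE 3.07 ± 0.03), and Hspa5, the Hsp70 of the compartment, 416 CPM of input and 1783 and 1787 CPM of footprints (TE 2.36 ± 0.03). Serpinh1, the collagen chaperone, was the only member below 0 (-0.50 ± 0.10).

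Cytosolic and mitochondrial chaperones had 8 of 16 higher and 1 lower (median 0.98), and close relatives parted. Hsp90aa1 had 207 CPM of input and 1131 and 1083 CPM of footprints (TE 2.67 ± 0.04), and Hsp90ab1 had 6606 CPM of input and 4049 and 4078 CPM of footprints (TE -0.44 ± 0.02). Hspa8, the constitutive Hsp70, was the 1 called lower, with 656 CPM of input and 63.0 and 65.2 CPM of footprints (TE -3.08 ± 0.08). Chaperonin subunits, which act in equal number in 1 ring, ran from Cct8 at 2.30 ± 0.03 to Cct7 at -0.24 ± 0.03, with 3 of 7 higher.

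Proteasome subunits had 11 of 46 higher and 3 lower (median 0.47), from Psmc6, an ATPase of the regulatory particle, with 54.1 CPM of input and 644 and 615 CPM of footprints, to Psma5 of the core at -1.58 ± 0.18. Ubiquitin-specific proteases had 8 of 38 higher and 3 lower (median -0.19), with Usp9x at 2.73 ± 0.05 and Usp21 4.01-fold below the median gene. Golgi and vesicle coat genes had 10 of 53 higher and 3 lower (median 0.28), Golgb1, the giant tether of the Golgi, being highest (2.42 ± 0.10).

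Basement membrane and matrix genes, made by stem cells and by their endoderm relatives, had 8 of 18 called higher and 0 lower (median 1.09). Lamc1, the laminin chain shared by most laminins, had 836 CPM of input and 1848 and 1909 CPM of footprints (TE 1.43 ± 0.03). Lamb1 had 135 CPM of input and 435 and 457 CPM of footprints (TE 1.97 ± 0.06), and Fn1, fibronectin, 1475 CPM of input and 2765 and 2755 CPM of footprints (TE 1.16 ± 0.03). Col1a1, a fibroblast collagen, was highest with 49.1 CPM of input and 293 and 300 CPM of footprints (TE 2.83 ± 0.08). Most of these genes lay near the 2-fold line, so the count rested on the setting, at 4 without centring, 2 with more spread allowed for the input library and 15 with a 1.5-fold line. Markers of endoderm and fibroblasts, some of them among these genes, had high summed footprints. Endoderm markers summed to 3220 and 3222 CPM against 1792 CPM of input, largely from Sparc. Fibroblast markers summed to 3481 and 3493 CPM against 1818 CPM, largely from Fn1. The part of such markers in the result was not tested.

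**Figure D5:**
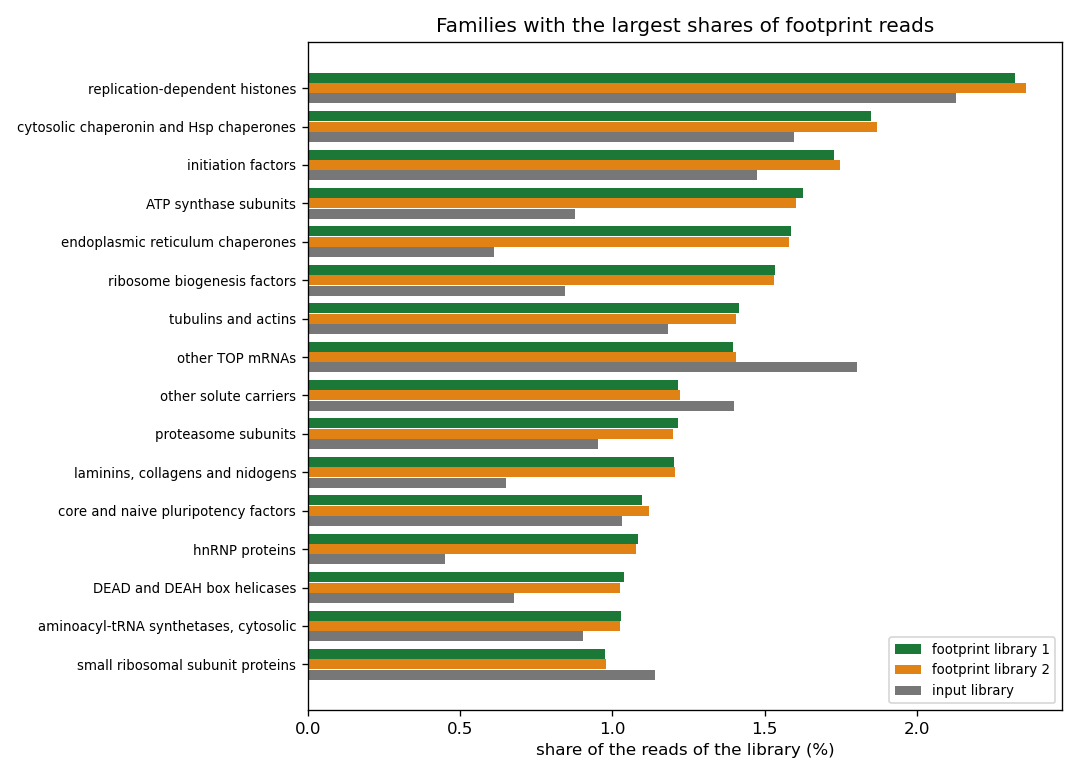
Share of all reads of each library (%) taken by the 16 gene families with the largest shares of footprints, in footprint library 1, footprint library 2 and the input library. The bars start at 0; the 2 footprint libraries nearly match, hnRNP proteins and endoplasmic reticulum chaperones have larger shares of footprints than of input, and other TOP mRNAs have a smaller one.

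The transcription factors of pluripotency lay near the median gene. Core and naive factors had a median TE of 0.04 with 3 of 18 higher and 1 lower. Pou5f1 (Oct4) had 1150 CPM of input and 1105 and 1153 CPM of footprints (TE 0.23 ± 0.03), and Nanog, which has 2 named copies, had 1188 CPM of input and 832 and 824 CPM of footprints (TE -0.26 ± 0.04). Sox2 lay at 0.15 ± 0.06 and Esrrb at -0.35 ± 0.03. Klf5 was the highest factor, with 111 CPM of input and 346 and 344 CPM of footprints (TE 1.88 ± 0.06). Nr5a2 (1.38 ± 0.10) and Trim28, the corepressor of transposons with the second most footprint CPM of all genes (1.28 ± 0.02), were also called higher. Nr0b1 was called lower, with 144 CPM of input and 43.1 and 45.4 CPM of footprints (TE -1.42 ± 0.12).

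Other markers of pluripotent cells spread further, with 3 of 18 higher and 4 lower (median 0.23). Fgf4, which drives exit from pluripotency through ERK, had 951 CPM of input and 138 and 136 CPM of footprints and the lowest TE (-2.53 ± 0.06). Tdgf1, a coreceptor of Nodal, had 343 CPM of input and 53.1 and 62.5 CPM of footprints (TE -2.30 ± 0.09). L1td1, an RNA-binding protein derived from a transposon, had 60.6 CPM of input and 258 and 260 CPM of footprints (TE 2.34 ± 0.08). In Fgf4 and Tdgf1 both footprint libraries lay below the input, and in L1td1 above it.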

How the data were processed

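Members and gene lists were chosen with earlier results of these data known. Footprints were deposited by the authors as counts per gene and as CPM, the input only as CPM, and translational efficiency as a ratio of footprint to input CPM, per the file headers. Bowtie and mm10 are named per the submitters' processing notes. The read counter is not given in the sources used here, nor are its strand, the region counted and the annotation. The gene list is labelled as filtered, but the rule of the filter is not given. If input was counted over whole transcripts, TE also depends on the coding share, which was not tested.

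From the CPM, log2(CPM + 1) was centred on each library's median over genes with at least 10 CPM of input. limma 3.58.1 (trend, treat at 2-fold, Benjamini-Hochberg adjusted p of 0.05) compared 2 footprint libraries with 1 input library in R 4.3.3. This left 1 residual degree of freedom per gene, all from footprints, and the spread was pooled over all genes. Scaling alternatives used edgeR 4.0.16 and DESeq2 1.42.0 factors. The code was tested on simulated data. Shares of reads have Wilson 95% intervals of at most ±0.05 percentage points, which cover counting error only. RefSeq (GRCm38.p6) matched 9054 genes. For 13 genes the symbol had become a date, and 9 other per-sample columns were not used. Named are the 12 highest and 12 lowest called genes, the 10 of each at or above the median input, the 3 highest and 3 lowest of each family (any member of families of up to 25), the 10 with most footprint CPM, and cell type markers.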

Additional observations from a re-analysis of the deposited data

How the results depend on the processing

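Of 605 named genes with a test, 0 reversed under any alternative. Of the 298 called, 32 were not past the threshold without centring, 66 with an added input spread of 0.2 (log2 SD), 1 with TMM factors, 3 with DESeq2 size factors and 9 of the 246 measured with a minimum of 30 CPM of input. Counts of all genes were most dependent on the fold tested. They were 1849 higher and 1739 lower at 1.5-fold, and 3208 and 3302 against no difference. A minimum of 30 CPM, which tests fewer genes, gave 762 higher and 800 lower, which turned the split, with 7 centromere proteins and 5 of cohesin, condensin and Smc proteins called higher. Without centring, 6 ATP synthase subunits and 4 of laminins, collagens and nidogens were called higher, with the added input spread 5 and 2, and of laminins, collagens and nidogens 15 at 1.5-fold and 16 against no difference. Leaving out a footprint library left no residual degrees of freedom, and 1533 to 1560 genes were past 2-fold higher and 1515 to 1520 lower, with no test. No paired analysis was possible because footprints and input share only replicate number 1. Count models of footprints with input reads (edgeR and DESeq2) were not run because input was deposited as CPM and too few values were low enough to check that its step is 1 read, and TE by protein length was not run because no protein sequences were used here. Depth limits the lowest values most, since 420 genes ranked had under 10 CPM of footprints in both libraries, of which 132 were called lower.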

Other observations

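Some features outside gene function went with wild-type TE across genes, given here as medians without a test. The median TE was 0.42 in the 1645 genes with least input and -0.23 in the 1644 with most, values linked by construction. It was 0.10 in the 1357 genes with the least GC in the 300 bases around the start and -0.19 in the 1301 with the most. In 5 bins of gene span it lay between -0.10 and 0.02. By chromosome, the median was highest on the X chromosome at 0.52 (56 of 213 genes or 26.3% called higher, 18 or 8.45% lower). Chromosome 18 followed at 0.40 (47 of 193 or 24.4% higher, 13 or 6.74% lower). Over all genes ranked the shares were 14.2% higher and 11.3% lower. The lowest medians were on chromosome 5 at -0.24 and chromosome 11 at -0.23. Input was not compared between chromosomes. The 874 genes under the input minimum had a median footprint to input ratio of 2.28 in both libraries, against 0.81 in the genes ranked. Few reads of input make a ratio large, so the choice of these genes favours high values.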
